A study of Mus musculus with 4 samples.

Results

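Cav1, Cav2 and Cavin1 (older name Ptrf) encode the coat of caveolae, and they were followed here in the RNA and the m6A peaks of fat from obese mice. These 3 genes of the 37315 counted Ensembl gene identifiers were chosen by name, as caveolae genes of adipocytes, with earlier results of the same data known, so their values describe these libraries and support no test. The identifiers are ENSMUSG00000007655 for Cav1, ENSMUSG00000000058 for Cav2 and ENSMUSG00000004044 for Cavin1. Their spans hold 1 of the 31856 peaks of the entacapone list and 1 of the 22860 peaks of the vehicle list.

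The tissue was inguinal white adipose tissue, the fat pad of the groin, from male C57BL/6 mice aged 23 weeks with obesity induced by a high-fat diet (DIO), given either entacapone or vehicle. Entacapone is a drug of Parkinson's disease that also has been described as an inhibitor of FTO, an enzyme that removes N6-methyladenosine (m6A) from RNA. For each treatment there was 1 input library of fragmented poly(A) RNA and 1 library of RNA pulled down with an antibody against m6A, 4 libraries in all. Dose and duration, and whether a library held 1 animal or a pool, are not stated in the labels. With 1 library of each kind there is no replicate, no spread between animals and no test across samples, and all intervals below are 95% intervals that cover counting error only.

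Caveolae are small flask-shaped pits of the plasma membrane, and adipocytes carry them at a high density. Caveolin oligomers in the membrane and a cytosolic layer of cavins build them together. They flatten when the cell is stretched and hold cholesterol, the insulin receptor and proteins of fatty acid uptake. Endothelial cells, smooth muscle and fibroblasts have caveolae too. Loss of caveolin-1 or cavin-1 is known to cause a lack of body fat in mice and in people.

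The 3 genes lie at 2 places in the genome. In the RefSeq annotation of GRCm38.p6, the assembly called mm10, Cav2 spans bases 17281185 to 17289130 of chromosome 6 on the plus strand. Cav1 follows on the same strand at 17306335 to 17341328, with a gap of 17.2 kb between the genes. Cavin1 lies on the minus strand of chromosome 11 at 100956736 to 100970617. The spans measure 7946, 34994 and 13882 bases for Cav2, Cav1 and Cavin1.

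The promoters of the 3 genes are shown as a description, and any link to their input levels was not tested. Each line gives, 5′ to 3′ on the gene's own strand, the 250 bases before the first annotated start (RefSeq, GRCm38.p6). Capitals mark the GC box, GGGCGG on either strand, the element bound by Sp1-type factors.
Cav1, chr6:17306085-17306334, plus strand: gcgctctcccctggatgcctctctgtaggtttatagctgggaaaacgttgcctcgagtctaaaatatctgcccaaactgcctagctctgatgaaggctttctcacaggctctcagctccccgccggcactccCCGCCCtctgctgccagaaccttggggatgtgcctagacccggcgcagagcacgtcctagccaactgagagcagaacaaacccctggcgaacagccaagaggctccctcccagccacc
Cav2, chr6:17280935-17281184, plus strand: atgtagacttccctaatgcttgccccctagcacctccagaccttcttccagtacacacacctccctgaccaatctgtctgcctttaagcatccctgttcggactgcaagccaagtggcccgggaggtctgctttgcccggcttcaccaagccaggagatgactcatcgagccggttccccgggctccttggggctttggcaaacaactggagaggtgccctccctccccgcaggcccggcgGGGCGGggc
Cavin1, chr11:100970618-100970867, minus strand: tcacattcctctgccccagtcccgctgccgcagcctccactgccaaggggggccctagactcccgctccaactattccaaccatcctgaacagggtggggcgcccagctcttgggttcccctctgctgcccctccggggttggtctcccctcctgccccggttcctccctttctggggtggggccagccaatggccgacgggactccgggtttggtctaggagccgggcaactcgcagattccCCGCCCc

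Every one of these 3 windows held 1 GC box, and 32.7% of the 32851 annotated 250-base windows of the mouse held at least 1. It lay at bases -118 to -113 from the start in Cav1, -9 to -4 in Cav2 and -7 to -2 in Cavin1. A CCAAT box (CCAAT, either strand) was found in Cav2 at -182 to -178 and in Cavin1 at -63 to -59, and 33.8% of all windows held one. A TATA box (TATAAA, either strand) was found in Cav1 alone, at -221 to -216, on the opposite strand, against 12.4% of all windows. The FOXO core GTAAACA, the E-box CACGTG and the nuclear receptor half-site AGGTCA, each searched on both strands, had no match in the 3 windows, and 3.17%, 6.02% and 14.0% of all windows held them. None of the matched motifs overlapped another. The GC content was 59.6% for Cav1, 62.0% for Cav2 and 67.6% for Cavin1, beside a median of 52.4% over all windows. Cav1 and Cavin1 each have a second annotated start, whose window is not printed. The second window of Cav1 held no GC box and no match to the other motifs. That of Cavin1 held a GC box and a CCAAT box. Letters that match describe these windows and do not show that a factor binds.

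All 3 coat genes had lower input RNA levels in the entacapone library than in the vehicle library. Levels are CPM, counts scaled to the library total, which are not divided by transcript length, so no order of level between the genes is read from them. The entacapone input held 33164576 counted reads and the vehicle input 24548212. Cav1, caveolin-1, the protein without which cells other than muscle form no caveolae, had 60708 reads in the entacapone input and 66092 in the vehicle input. That was 1831 CPM (Poisson interval 1816 to 1845) with entacapone and 2692 CPM (2672 to 2713) with vehicle. The Cav1 log2 ratio, entacapone over vehicle, was -0.56 (exact conditional interval -0.57 to -0.54), so the entacapone level was 32.0% lower.

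Cav2 encodes caveolin-2, which joins caveolin-1 in mixed oligomers and needs it to reach the surface. It had 12121 reads in the entacapone input and 12658 in the vehicle input, or 365 CPM (359 to 372) and 516 CPM (507 to 525). The Cav2 log2 ratio was -0.50 (-0.53 to -0.46), a level 29.1% lower with entacapone. The intervals of Cav1 and Cav2, the neighbours on chromosome 6, did not overlap, although their ratios lay closer to each other than to that of Cavin1.

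Cavin1 encodes cavin-1, the coat protein that stabilises the pit and was first described as a factor that releases transcripts of RNA polymerase I. Its read number was the higher one in the entacapone input, with 50428 reads against 47001 in the vehicle input, but the entacapone library was 1.35 times as deep. Scaled to the library, Cavin1 stood at 1521 CPM (1507 to 1534) in the entacapone input and 1915 CPM (1897 to 1932) in the vehicle input. Its log2 ratio was -0.33 (-0.35 to -0.31), a level 20.6% lower. The interval of the Cavin1 ratio also overlapped neither that of Cav1 nor that of Cav2. In bulk tissue, fewer cells of a type and less RNA per cell cannot be told apart.

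**Figure D1:**
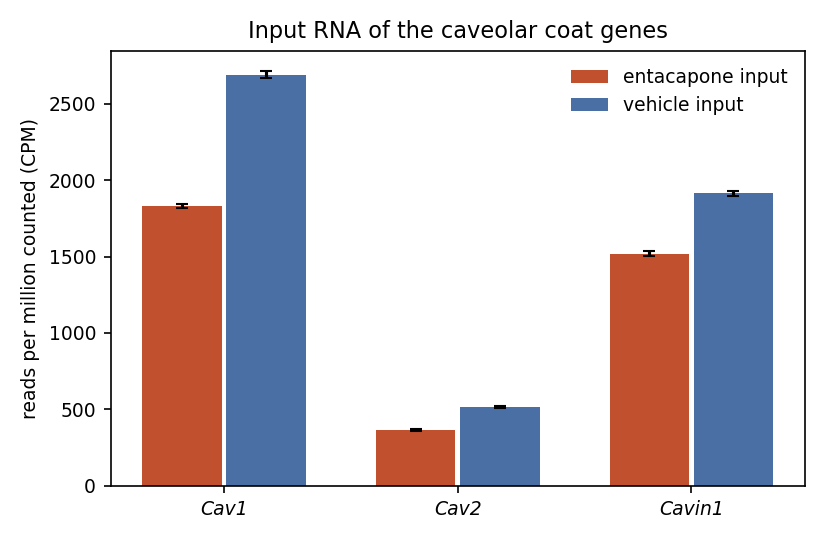
Bars give CPM, counts scaled to the library total (y axis), of Cav1, Cav2 and Cavin1 (x axis) in the entacapone input (left bar) and the vehicle input (right bar), 1 library each, and error bars are exact Poisson 95% intervals. For Cav1 the entacapone bar stands at 1831 CPM beside 2692 CPM for vehicle, and the entacapone bar is the lower one for each gene.

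The read shares between the members do not depend on how the libraries are scaled. Of the reads in Cav1 and Cavin1 together, Cav1 took 54.6% (Clopper-Pearson interval 54.3 to 54.9) in the entacapone input and 58.4% (58.2 to 58.7) in the vehicle input. Cav2 took 19.4% (19.1 to 19.7) of the reads in Cav2 and Cavin1 with entacapone and 21.2% (20.9 to 21.5) with vehicle. Both caveolins therefore had fewer reads per Cavin1 read in the entacapone library. Between the caveolins the shares were closer, with Cav1 at 83.4% (83.1 to 83.6) of the Cav1 and Cav2 reads with entacapone and 83.9% (83.7 to 84.2) with vehicle. The intervals leave out the spread between animals, which these libraries do not show.

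The members were then set against the 13820 identifiers whose mean over the inputs was at least 1 CPM. The median log2 ratio of the members was -0.50, and that of all 13820 was 0.08, with quartiles at -0.11 and 0.29. Of these identifiers, 4.73% had a lower ratio than Cav1, 5.60% a lower one than Cav2 and 9.67% a lower one than Cavin1. Among the 1786 identifiers with at least 100 CPM, whose depth is nearer to that of the members, the median was -0.01, and 5.60%, 6.89% and 12.5% had lower ratios than Cav1, Cav2 and Cavin1. The members thus lay in the lower tail of both distributions, with many other identifiers beyond them: 653 of the 13820 lay below Cav1. Between the lowest and the highest member ratio lay 685 identifiers (4.96%), members included, which are not named because the sources used here give them no gene name.

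**Figure D2:**
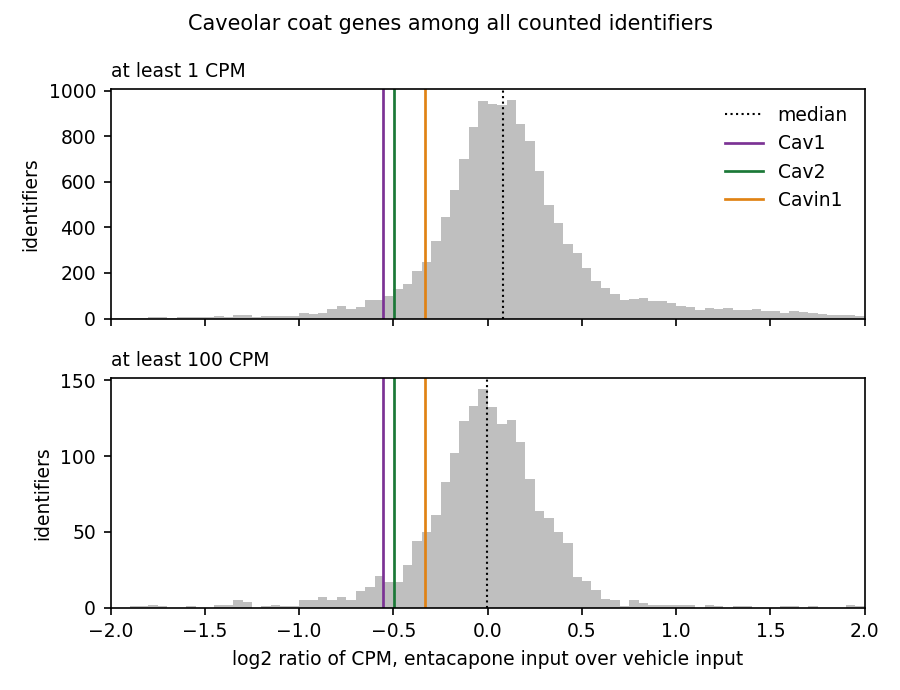
Histograms of the log2 ratio of CPM, entacapone input over vehicle input (x axis), with the number of identifiers (y axis), for identifiers with at least 1 CPM (top) and at least 100 CPM (bottom). Coloured lines mark Cav1 (-0.56), Cav2 (-0.50) and Cavin1 (-0.33) and the dotted line the median, 0.08 at the top and -0.01 at the bottom. The axis ends at -2 and 2, which leaves out 140 and 2 identifiers.

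All 3 members had an interval wholly below no change, which 20.0% of the 13820 identifiers and 42.0% of the 1786 also had, while 37.3% and 41.4% had one wholly above it. No member was called lower under a stricter rule, an interval wholly beyond 1.5-fold, which called 2.52% of the 13820 identifiers lower (348) and 5.6% higher (774), or 4.03% and 2.07% of the 1786. Cav1 came nearest, with a ratio of 0.680 (0.672 to 0.687), and its call turned with the scaling. With TMM factors, which centre the bulk of the genes, the ratio of Cav1 was 0.643 (0.636 to 0.650), and it was called lower, as were 3.09% of all identifiers under that scaling. DESeq2 size factors and upper quartile factors gave Cav1 ratios of 0.642 and 0.658 and the same call. In that order, these scalings called 429 and 390 of the 13820 identifiers lower. The share of the 1786 called was computed under library totals only. Cav2 and Cavin1 were not called under any of the 5 scalings. A scaling moves all identifiers alike, and with TMM the median of all was 0.00 in place of 0.08.

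**Figure D3:**
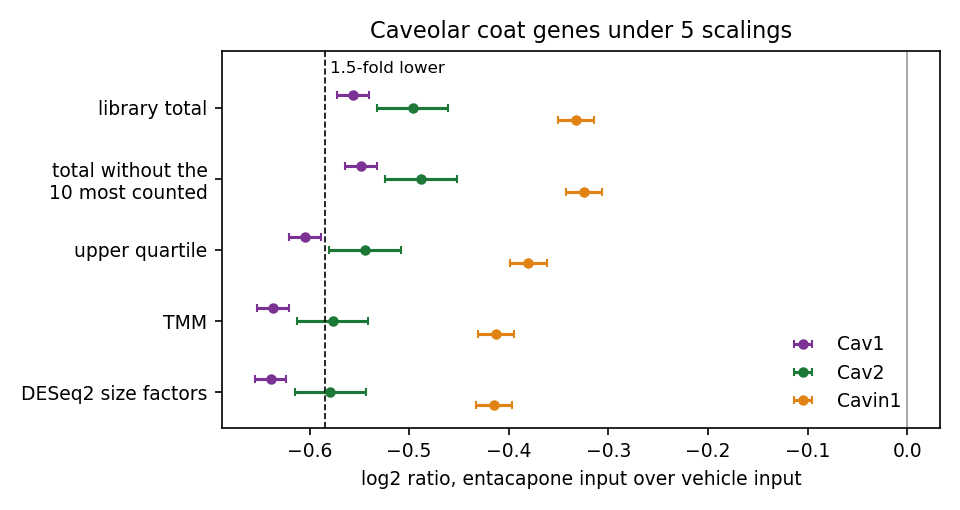
Points give the log2 ratio, entacapone input over vehicle input (x axis), of each gene under 5 ways to scale the libraries (y axis), and bars are exact conditional 95% intervals. The dashed line is a level 1.5-fold lower: Cav1 crosses it with upper quartile, TMM and DESeq2 size factors, and Cavin1 stays right of it throughout.

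The m6A lists gave a single place in the coat genes, and it was the same one in both libraries. Cav1 carried 1 peak in the entacapone list, at 17323396 to 17323475 on chromosome 6, and 1 in the vehicle list, at 17323421 to 17323487, with coordinates as deposited. The peaks were 79 and 66 bases wide in the entacapone and the vehicle list and shared 54 bases. The shared stretch made up 68.4% of the entacapone peak and 81.8% of the vehicle peak. Over whole lists, 55.9% of entacapone and 78.7% of vehicle peaks overlapped one of the other list. The midpoints of the Cav1 peaks lay 18.5 bases apart, 17.1 kb from the annotated start of Cav1 and 17.9 kb from its end, near the middle of the span. Of all peaks in protein-coding spans at least as long as Cav1, 10.3% in the entacapone list and 10.0% in the vehicle list lay in the central part, between 40% and 60% of the span. Exons were not annotated in the sources used here, so whether the Cav1 peak lies in an exon or an intron was not determined, and its bases are not shown.

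The fold of a peak is the authors' own value, read as pull-down over input, and serves to rank peaks within a list. The Cav1 peak had a fold of 6.63 in the entacapone list, above 95.6% of that list. It had a fold of 5.97 in the vehicle list, above 89.0% of that list. Exactly this value of 6.63 stood at 87 peaks of the entacapone list, whereas 5.97 to all its digits stood at the Cav1 peak alone in the vehicle list. Lists of different length have different ranks, so no change in methylation is read from them.

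**Figure D4:**
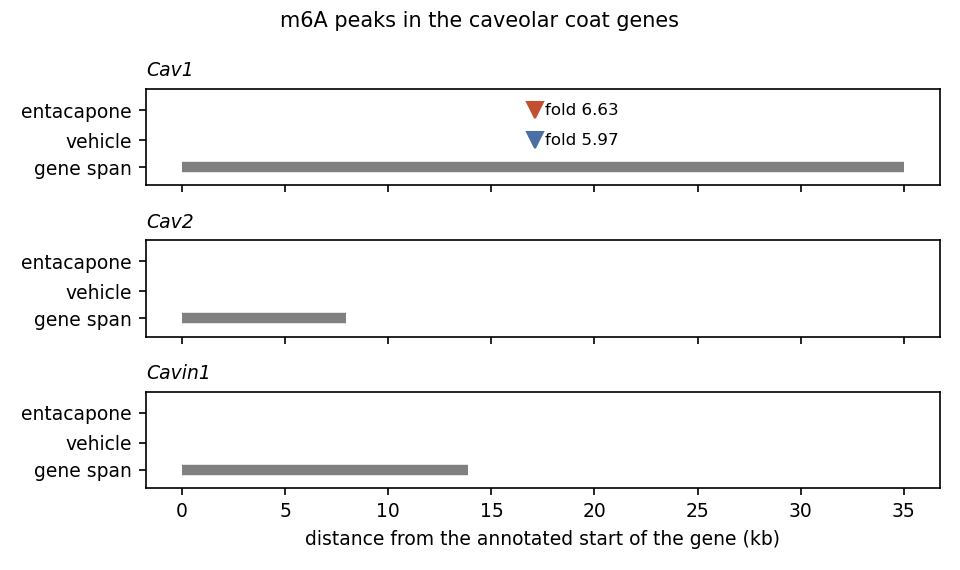
Grey bars show the spans of Cav1, Cav2 and Cavin1 by distance from the annotated start (kb, x axis), and triangles show m6A peak midpoints in the entacapone list (upper row) and the vehicle list (lower row), with the authors' fold. Cav1 has 1 peak in each list, 17.1 kb from the start, and the other spans are empty.

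Cav2 and Cavin1 had 0 peaks in each list. For Cav2 the nearest peak was that of Cav1, 34.3 kb away in both lists. For Cavin1 the nearest peak lay 68.3 kb away in the entacapone list, in Stat3, and 105.9 kb away in the vehicle list, in Naglu. Genes without a listed peak are common: 47.6% of the 21883 protein-coding genes had none in either list, and 50.0% had at least 1 peak in the entacapone list and 41.1% in the vehicle list. A peak in both lists, as in Cav1, was found in 38.7%, one in the entacapone list alone in 11.3% and one in the vehicle list alone in 2.4%. Exactly 1 peak in each list, as Cav1 had, was found in 7.33%. A gene with no listed peak is not shown to lack m6A.

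Other genes that build or shape caveolae carried more peaks in the entacapone list. Of 11 such genes, 9 carried a peak with entacapone and 4 with vehicle, and all 4 were among the 9. Over all protein-coding genes, 50.0% carried a peak with entacapone, 41.1% with vehicle and 11.3% with entacapone alone. The entacapone peaks numbered 20 and the vehicle peaks 7, while the entacapone list as a whole was 1.39 times as long. Of the 20 entacapone peaks 14 (70.0%) overlapped no vehicle peak, beside 44.1% of the whole entacapone list, and 1 of the 7 vehicle peaks (14.3%) overlapped no entacapone peak, beside 21.3% of the whole vehicle list. When each list was held to its 22860 peaks of highest fold, only the entacapone list was cut. The genes with a peak then came closer, to 5 for entacapone and 4 for vehicle, and peaks to 10 and 7. At that length 7 of the 10 entacapone peaks (70.0%) and 4 of the 7 vehicle peaks (57.1%) overlapped no peak of the other list. Shares over whole lists were not computed at that length, so these are not read against 44.1% and 21.3%. At a fold of at least 4, 3 genes carried a peak with entacapone and 2 with vehicle, with 4 and 2 peaks. The share over all protein-coding genes was not computed for the cut entacapone list or at that fold.

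Among the cavins, Cavin2, which helps bend the membrane, had 1 entacapone peak, of fold 1.49, and 0 vehicle peaks. That fold is the lowest of the entacapone list. Cavin4, the cavin of muscle, had 2 peaks in each list, 1 of them shared. Cavin3 and Cav3, the caveolin of muscle, had 0 in both. Only Cavin2 of these 4 genes thus had a peak in 1 list and none in the other.

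The EHD proteins are ATPases that sit at the neck of the pit, EHD2 above all. Ehd2 had 4 entacapone and 2 vehicle peaks, and both vehicle peaks were shared. Its highest fold was 3.32 in the entacapone list and 3.29 in the vehicle list. Ehd4 had 2 peaks in each list, all shared, and Ehd1 had 2 entacapone and 0 vehicle peaks. The pacsins are F-BAR proteins that bend membranes, and pacsin 2 acts at caveolae. Pacsin2 had 3 entacapone peaks, with folds up to 2.14, and 0 vehicle peaks. Pacsin3 had 2 and 0, and Pacsin1, the neuronal form, 1 and 0. Ror1, a receptor tyrosine kinase described as a caveolar scaffold in human cancer cells, had 3 entacapone peaks and 1 vehicle peak, which was shared.

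**Figure D5:**
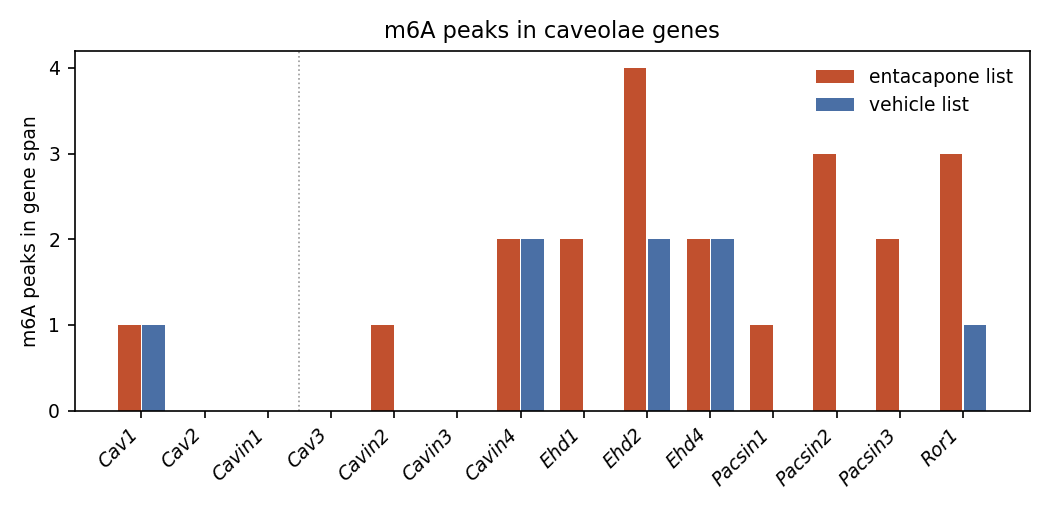
Bars count m6A peaks within the gene span (y axis) for the coat genes (left of the dotted line) and 11 other caveolae genes (x axis), in the entacapone list (left bar) and the vehicle list (right bar), 1 list per treatment. Cav1 has 1 peak in each, whereas Ehd1, Cavin2 and the pacsin genes have peaks in the entacapone list alone.

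Proteins that reside in caveolae or bind caveolin were the next list. Of 12 such genes, 9 carried a peak with entacapone and 8 with vehicle, in all 33 and 20 peaks. The entacapone list as a whole was 1.39 times as long. Of the entacapone peaks 51.5% overlapped no vehicle peak, beside 44.1% of the whole entacapone list. Of the vehicle peaks 20.0% overlapped no entacapone peak, beside 21.3% of the whole vehicle list. With both lists at 22860 peaks the gene counts became 8 and 8 and the peaks 11 and 20, so the order of the peak numbers turned. The vehicle list has that length uncut, so only entacapone peaks were removed. With a fold of at least 2 asked of both lists the peaks were 22 with entacapone and 17 with vehicle. At a fold of at least 4 they were 1 and 5. The lengths of the whole lists at these folds were not computed. Named after their values were seen, Insr, the insulin receptor, had 5 entacapone and 4 vehicle peaks, 3 of them shared, and Cd36, the fatty acid transporter, had 4 and 2, 1 of them shared. Slc2a4, the insulin-responsive glucose transporter, had 2 entacapone peaks, with folds of 1.69 and 1.64, and 0 vehicle peaks. Nos3, the endothelial nitric oxide synthase that caveolin-1 holds inactive, had 0 in both. Flotillins and related raft genes, which mark membrane domains other than caveolae, had a peak in 3 of 4 genes in the entacapone list and in 1 in the vehicle list, or in 1 and 1 with both lists at 22860 peaks. Over all protein-coding genes the shares with the full lists were 50.0% with entacapone and 41.1% with vehicle. With the entacapone list held to 22860 peaks, that share was not computed.

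Marker genes of the cells that could supply these transcripts could be read in the peak lists only, because names are at hand for the count identifiers of Cav1, Cav2 and Cavin1 alone. The label of adipocyte genes was therefore not checked against marker levels. The full-list counts that follow stand beside 50.0% of all protein-coding genes with an entacapone peak and 41.1% with a vehicle peak. Adipocyte markers had a peak in 9 of 14 genes in the entacapone list and in 7 in the vehicle list. Endothelial markers had one in 11 of 12 genes with entacapone and in 4 with vehicle. Smooth muscle and pericyte markers had one in 4 of 8 genes with entacapone and in 4 with vehicle, and fibroblast and progenitor markers in 5 of 7 with entacapone and in 3 with vehicle. Macrophage markers gave 4 of 8 with entacapone and 4 with vehicle, and lymphocyte markers 7 of 8 with entacapone and 4 with vehicle. Skeletal muscle markers gave 4 of 8 with entacapone and 5 with vehicle, and epithelial markers 5 of 5 with entacapone and 3 with vehicle. With both lists at 22860 peaks, the genes with an entacapone and with a vehicle peak were 7 and 7 for adipocyte, 6 and 4 for endothelial, 4 and 4 for smooth muscle and pericyte, 3 and 3 for fibroblast and progenitor and 2 and 4 for macrophage markers. They were 5 and 4 for lymphocyte, 4 and 5 for skeletal muscle and 5 and 3 for epithelial markers. These pairs of counts do not say how many genes had a peak in both lists. The share over all protein-coding genes was not computed for the entacapone list held to that length. A peak does not measure how much of a cell type is present. What part a different cell makeup has in the lower coat gene levels was not tested.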

How the data were processed

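The submitters' processing notes name TopHat2 2.1.1, MACS2 and mouse build mm10. The tool that counted reads, the annotation release, the strand setting and the peak threshold are not stated there or in the labels. The deposited input values are raw read counts per Ensembl identifier, not normalized. The deposited peak lists give chromosome, start, end and an unlabelled number, read from its values as the authors' linear fold (a ratio of m6A library over input). Whether starts count from 0 is not stated.

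Counts were scaled to library totals. Log2 ratios used a prior of 0.5 counts, and ratio intervals are exact conditional (Clopper-Pearson) 95% intervals. Other scalings were TMM and upper quartile (edgeR 4.0.16), DESeq2 1.42.0 and totals without the 10 most counted identifiers. The ratio script was tested on simulated data that held counting error only, with no spread between animals. Peaks belong to a gene when their midpoint lies in its RefSeq span (GRCm38.p6), and an overlap of at least 1 bp (bedtools 2.31.1) counts as shared. No test across samples was possible with 1 library per treatment. The intervals cover only counting error at 33164576 reads (entacapone input) and 24548212 reads (vehicle input).

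The members, the 12 gene lists and all rules were chosen with earlier results of these data known. The members and the 11 other caveolae genes were named by rule. Since no table pairs the other identifiers with symbols, the planned naming by CPM and by similar ratio was not run. All 100 list genes matched the RefSeq table by symbol.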

Additional observations from a re-analysis of the deposited data

How the results depend on the processing

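All 26 alternative peak counts for Cav1, Cav2 and Cavin1 equalled the reported ones. They took peaks touching the span, a fold of at least 2 or 4, or each list held to its 22860 peaks of highest fold. An overlap of at least 50% of both peaks was also asked of the shared Cav1 peak. Cuts by fold or rank only remove peaks, so they could not add any to Cav2 or Cavin1. The Cav1 peaks had folds above 4 and an overlap above 50% of both. Only the counts of peaks touching the span could thus have come out otherwise. The log2 ratios of Cav1, Cav2 and Cavin1 were -0.64, -0.58 and -0.41 with TMM factors, -0.64, -0.58 and -0.41 with DESeq2 size factors and -0.60, -0.54 and -0.38 with upper quartile factors, each outside its counting interval under library totals. Of the members only Cav1 passed 1.5-fold under these 3 scalings, which called 427, 429 and 390 of the 13820 identifiers lower. Without the 10 most counted identifiers the log2 ratios of the members were -0.55, -0.49 and -0.32. Relative to the median of all identifiers under library totals, the ratios were -0.64, -0.58 and -0.41. No ratio changed sign under the 4 alternatives. The numbers of identifiers lower and higher beyond 1.5-fold were 427 and 673 with TMM factors and stayed within 1.5 times the reported 348 and 774 under each alternative run. No paired analysis was possible because each treatment has 1 library of each kind. Input depth was no limit for the levels of the members, the least counted having 12121 reads, whereas the missing replicates limit every comparison. The depth of the m6A libraries, on which listed peaks depend, was not examined.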
